A study of Homo sapiens with 9 samples.

Results

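The 6 blocks of chromosome 19 that carry arrays of KRAB zinc finger genes were followed through S phase in 2 human cell lines. The clusters were set by their spans in the hg19 build. Cluster 1 was chr19:11700001-12750000, cluster 2 chr19:19750001-24200000 and cluster 3 chr19:36700001-38400000. Cluster 4 was chr19:44250001-45000000, cluster 5 chr19:52300001-54000000 and cluster 6 chr19:56100001-58900000. Cut into 50 kb windows, they gave 21, 88, 34, 15, 34 and 56 windows with enough reads. Those 248 windows, of 249 in the spans, made up 22.2% of the 1116 windows kept on the chromosome and belonged to 56728 kept over the autosomes and chromosome X. The spans are defined by position alone.

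KRAB zinc finger proteins bind DNA through rows of zinc fingers, and many of them silence transposable elements by bringing in the co-repressor TRIM28 and enzymes that methylate histone H3 on lysine 9. Their genes arose largely by tandem duplication and lie side by side in gene-rich, otherwise early-replicating chromosomes such as chromosome 19, often under H3K9me3. Large domains of the genome replicate at set times in S phase, and heterochromatic domains tend to replicate late.

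The cell lines were HCT116, from a colorectal carcinoma, and RPE1, a telomerase-immortalised line of the retinal pigment epithelium. No treatment or genetic change was compared, and all cells were unsynchronised. A pulse of EdU, a thymidine analogue, marked new DNA, cells were sorted into early, mid and late S phase, and EdU-carrying DNA was captured and sequenced. There were 2 RPE1 sets and 1 HCT116 set, each of 3 libraries, which gave 9 libraries of 6170299 to 22930078 reads. Each line stands for 1 cell type from 1 source, and the labels do not give the RPE1 sets separate cultures, so the spread between them may be technical.

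The 3 count columns of each table carry no names, and no column could be tied to a fraction. By position in its table each column is named library A, B or C here, and a letter does not mean early, mid or late. Across the 1116 windows of chromosome 19, log2 scaled reads of library A correlated between sets at r = 0.971 for the RPE1 sets and at 0.854 and 0.898 for HCT116 with RPE1 sets 1 and 2. The same figures were 0.882, 0.699 and 0.804 for library C. Library B matched less well, at 0.546, 0.429 and 0.541, and B of RPE1 set 1 correlated more with A of HCT116, at 0.795, than with B of HCT116. Within RPE1 too, B of set 1 correlated more with A of set 2, at 0.646, than with B of set 2. By shares over the 248 cluster windows, however, B of RPE1 set 1 correlated more with B of set 2, at 0.823, than with A of set 2, at 0.629. B of HCT116 stayed less well matched by shares, at 0.270 and 0.450 with B of RPE1 sets 1 and 2. Libraries A and C are therefore set side by side between sets by their likeness. The letter B is less sure to stand for the same fraction, above all between the lines. These windows share libraries and depth, and the correlations are descriptions.

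The names of the genes were taken by order along the chromosome from RefSeq for GRCh38.p14, because no hg19 annotation was used here. Of 1451 protein-coding genes on chromosome 19, 265 had a symbol starting with ZNF, ZFP, ZSCAN, ZIM or ZIK, and 214 of these stood in the 6 longest runs of such genes. Runs were paired with the spans by their order only. The run for cluster 1 went from ZNF627 to ZNF791 with 24 such symbols and that for cluster 2 from ZNF101 to ZNF254 with 37. The latter holds ZNF91 and ZNF93, whose proteins are known to repress SVA and LINE-1 retrotransposons of primates. The runs for clusters 3 and 4, ZNF565 to ZNF573 and ZNF283 to ZNF180, had 29 and 20. That for cluster 5 went from ZNF577 to ZNF331 with 40. The last, ZNF787 to ZNF446, was the most mixed, with 64 such symbols among 81 genes. It holds ZNF274, whose protein is known to bind zinc finger genes themselves, and the ZSCAN and ZIM genes. The next longest run on the chromosome had 12. All these counts are of symbols. They include ZNF470-DT for cluster 6 and the joined symbols ZNF816-ZNF321P and ZNF765-ZNF761 for cluster 5.

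Library C held more, and library A fewer, of the scaled reads in the clusters than elsewhere on the chromosome. After each library was scaled to the same total, the clusters gave 41.4% of their reads to library C in RPE1 set 1 and 42.0% in RPE1 set 2, against 13.4% and 24.6% in the 868 windows of the rest of chromosome 19. In HCT116 the C share was 32.5% in the clusters and 22.6% in the rest. All 3 sets thus had a higher C share inside the clusters, with the smallest gap in HCT116. Library A held 30.1%, 26.4% and 29.8% of cluster reads in RPE1 sets 1 and 2 and HCT116, against 53.8%, 50.4% and 48.0% in the rest. Over the autosomes the C share was 32.2, 32.5 and 33.2% and the A share 34.0, 34.0 and 33.5% in the same sets. Scaling to equal totals itself sets these autosomal shares near to one another. The rest of chromosome 19 was thus richer in A than the autosomes. In HCT116 the C share of the clusters was near that of the autosomes. The A share of the clusters minus that of the rest was -23.9 ± 0.241 percentage points in RPE1 (SD, n = 2) and -18.2 in HCT116. The same difference for the C share was 22.7 ± 7.44 points in RPE1 (SD, n = 2) and 9.91 in HCT116. The HCT116 value for A lies outside the range of the RPE1 sets, -23.7 and -24.0, and that for C lies below both RPE1 values, 28.0 and 17.5. The log2 ratio of C to A reads was higher in clusters than in the rest by 2.46 and 1.71 in the RPE1 sets and by 1.21 in HCT116. Medians over windows in place of summed reads gave larger RPE1 differences, 35.9 points of C share and 3.68 in the log2 ratio, in the same direction.

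Library B did not separate the clusters from the rest in RPE1. Its share in the clusters was 28.5% in RPE1 set 1, below the 32.8% of the rest, and 31.6% in RPE1 set 2, above the 24.99% of the rest. In HCT116 it was 37.7% against 29.3%. The RPE1 sets therefore differed in sign, and the HCT116 excess of 8.32 points lay close to the 6.57 of RPE1 set 2. The letter B was matched less well between the RPE1 sets by log2 reads than by shares of the cluster windows. With 2 RPE1 sets and 1 HCT116 set no test was run, and the spread between the RPE1 sets is the error given. Whether counting error is smaller depends on the measure. For the A share of all clusters in RPE1 set 1 the 95% Wilson interval was 29.9 to 30.3%. The RPE1 sets differed by 3.67 points in that share, but by only 0.341 points in its difference from the rest. For the A share of cluster 4 in RPE1 set 1 the interval was 39.6 to 42.1%. There the sets differed by 2.44 points in the share and 0.888 points in its difference from the rest. For cluster 4, with the fewest reads, the interval of the C share in RPE1 set 1 was 10.7 to 12.2%, and for all clusters together it was 41.2 to 41.7%. These intervals cover counting error only.

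**Figure D1:**
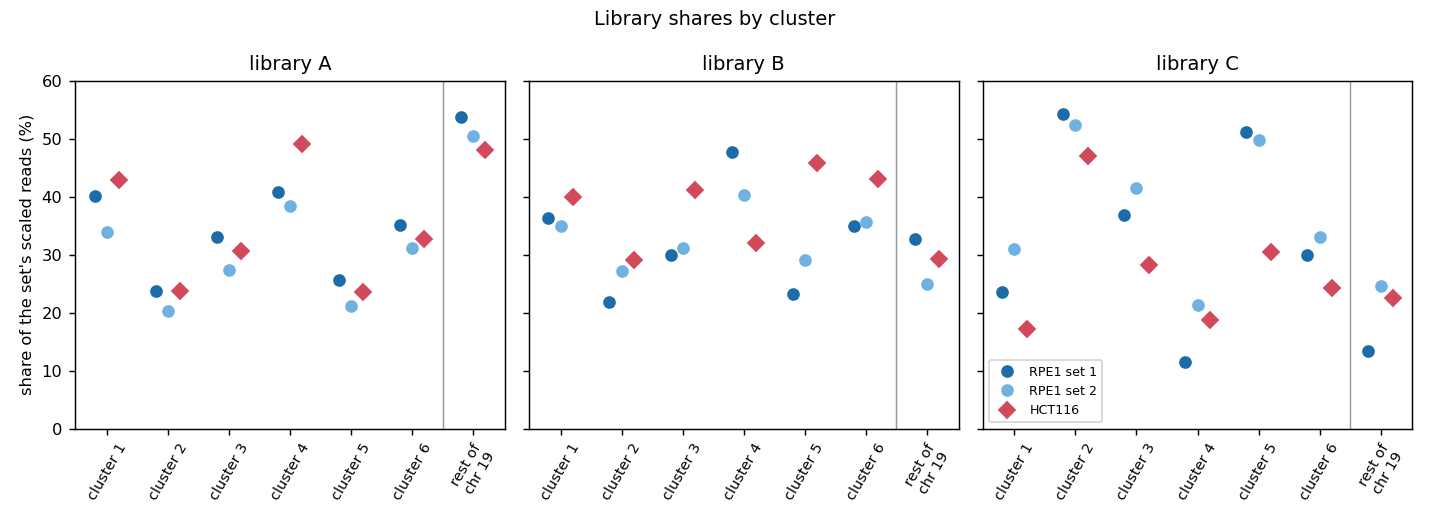
Share of a set's scaled reads (y axis, %) held by library A, B or C (one panel each) in each zinc finger cluster and in the rest of chromosome 19 (x axis). Each point is 1 set, circles for the RPE1 sets and diamonds for HCT116. Clusters 2 and 5 had the highest C shares in RPE1, up to 54.3%, while in HCT116 cluster 5 stood at 30.5% and its B share reached 45.9%.

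The clusters were not alike, and their shares can be read as a single scale. For each set, the log2 reads of the 3 libraries were centred within a window and reduced to their first principal component over the autosomes, given in autosomal SD, with library C at the positive end and library A at the negative end. Library B has a weight of -0.287 in RPE1 set 1, 0.105 in set 2 and -0.207 in HCT116, so a B-rich window is moved towards A in 2 sets and slightly towards C in the other. On this leading axis the means in RPE1 sets 1 and 2 ran from cluster 4 (-0.601 and -0.530) through cluster 1 (-0.199 and -0.0874), cluster 6 (0.0518 and 0.0575), cluster 3 (0.346 and 0.331) and cluster 5 (0.770 and 0.6998) to cluster 2 (0.849 and 0.801). The order was the same in both RPE1 sets. Clusters 5 and 2 were the closest neighbours, 0.0791 and 0.101 apart, little more than the 0.0701 by which the RPE1 sets differed in cluster 5. The other neighbours lay 0.145 to 0.442 apart, against at most 0.111 between the RPE1 sets. In HCT116 the order was cluster 1 (-0.835), 4 (-0.824), 6 (-0.304), 3 (-0.0355), 5 (0.211) and 2 (0.809), and clusters 1 and 4 lay 0.0112 apart, less than the RPE1 sets differed in either. The rest of the chromosome averaged -0.760, -0.713 and -0.633 in RPE1 sets 1 and 2 and HCT116, so each cluster lay nearer the C end than the rest in RPE1, and clusters 1 and 4 did not in HCT116.

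**Figure D2:**
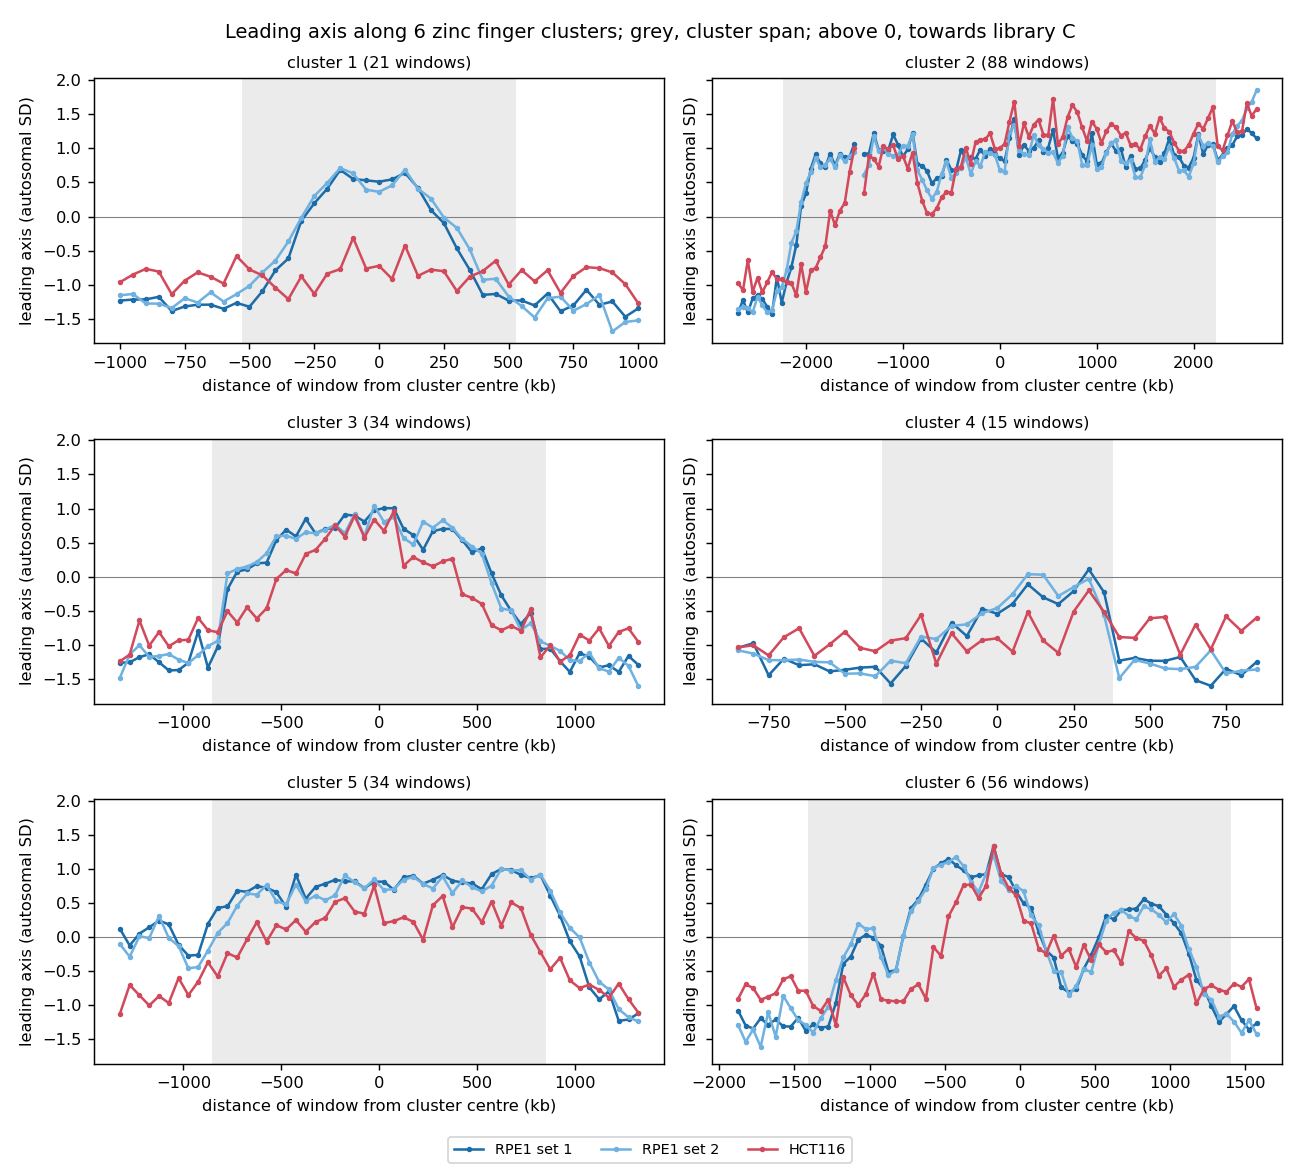
Leading axis (y axis, autosomal SD, positive towards library C) of each 50 kb window against its distance from the cluster centre (x axis, kb), with 500 kb on both sides and the cluster span in grey. Each line is 1 set. The RPE1 lines rise inside every span and overlie each other, whereas on this axis HCT116 stays flat through cluster 1 and climbs later than RPE1 from the lower edge of cluster 2.

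Cluster 1, from chr19:11700001 to 12750000, had a C-rich centre in RPE1 and a B-rich one in HCT116. As a whole, cluster 1 had C as its smallest share in every set. Its A, B and C shares were 40.2, 36.3 and 23.6% in RPE1 set 1 and 33.9, 35.1 and 31.1% in RPE1 set 2. In HCT116 they were 43.0, 39.9 and 17.1%. The C share in HCT116 was below both RPE1 values. Minus that of the rest of the chromosome it was 10.1 and 6.48 points in the RPE1 sets, against -5.51 in HCT116, or -1.75 in HCT116 by medians over windows. In the 11 windows more than 250 kb from an edge, the axis averaged 0.408 and 0.427 in RPE1 and -0.758 in HCT116. In the 20 flanking windows, within 500 kb of the span, it was -1.28, -1.30 and -0.892. The centre thus stood well above the flanks in both RPE1 sets and hardly above them in HCT116 on this axis, where A and B both weigh negative in HCT116. By shares the HCT116 centre did differ from its flanks, with A at 35.4% against 54.3% and B at 47.8% against 27.8%, while C was 16.9% against 17.9%. Library C exceeded A over 400 kb and 500 kb without a break in RPE1 sets 1 and 2, and in no window of the 21 in HCT116.

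The window of cluster 1 nearest the C end, chr19:12300001-12350000, had C shares of 46.0 and 45.3% in the RPE1 sets, against 19.8% in HCT116, where library B held 51.6%. The window nearest the A end, chr19:12700001-12750000 at the upper edge, gave A 62.5, 61.7 and 54.5% in RPE1 sets 1 and 2 and HCT116. The lines therefore resembled each other at the edge and differed at the centre. Window by window, the axis of the RPE1 sets correlated at r = 0.989 over the 21 windows, and HCT116 with each of them at 0.339 and 0.337.

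Cluster 2, the longest at 4.45 Mb, was the most C-rich in every set. Its C share was 54.3 and 52.4% in the RPE1 sets, with 47.1% for HCT116, and its A share 23.8, 20.4 and 23.8%. Library C exceeded A in 84, 85 and 77 kept windows in a row, up to the upper edge, with 1 window inside the stretch left out for too few reads. The lines parted at the lower end. There the stretch began 200 kb and 150 kb from the edge in RPE1 and 550 kb from it in HCT116.

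The lines differed on the lower side of cluster 2 and had like shares on the upper side. In the 43 windows below the middle of the span the axis averaged 0.735 and 0.683 in RPE1 and 0.335 in HCT116, and HCT116 lay below both RPE1 sets in 28 of them. The C share there was 50.5 and 48.4% in RPE1 and 35.9% in HCT116. Summed over the 45 windows above the middle, the C share was 57.9, 56.4 and 57.1%, the A share 22.7, 18.96 and 20.2% and the B share 19.4, 24.6 and 22.7%. Each summed HCT116 share thus lay between the RPE1 sets. Single windows could lie outside, such as chr19:23600001-23650000 with C at 51.7, 54.0 and 60.6%. The axis of HCT116 was nonetheless above both RPE1 sets in all 45 of these windows, with averages of 0.958, 0.914 and 1.26. On average it was also above both in C-led stretches outside the clusters, such as chr19:27750001-29750000 with 1.19, 1.22 and 1.47. The highest values in the rest of the chromosome were 1.43, 1.85 and 1.84, so by this measure HCT116 did not reach past RPE1 set 2. The maxima of these 2 sets came from different windows. That of RPE1 set 2 was chr19:24600001-24650000, a deep window of 4476 reads in that set, where HCT116 stood at 1.58. Library C led all 45 of these windows in every set, but 38 and 39 of the lower 43 in RPE1 and 21 in HCT116. The split at the middle was applied to every cluster and was chosen after the profiles were seen. A dip near chr19:21250001-21300000 was shared, with smoothed axis values of 0.571, 0.337 and 0.0676 in RPE1 sets 1 and 2 and HCT116. The window nearest the C end, chr19:22100001-22150000, had C shares of 76.0, 64.0 and 67.0%. That nearest the A end was the first of the cluster, chr19:19750001-19800000, with A at 50.8, 43.3 and 53.9%.

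Cluster 2 had a lower edge and no upper one. At the lower edge the axis rose by 0.896 and 1.11 in RPE1 from the 5 windows outside to the 5 inside, and differed by -0.0351 in HCT116. At the upper edge the same difference was 0.0267, -0.00694 and 0.218, with the outer windows already at 0.993, 1.03 and 1.17. The C-led stretch continued there to chr19:24650000. Beside the clusters, C led in all 3 sets in 82 windows of the chromosome, all in 3 stretches, chr19:24200001-24650000, chr19:27750001-29750000 and chr19:30900001-32550000.

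Cluster 3 was a dome in both lines, lower in HCT116. Its C share was 36.8% in RPE1 set 1 and 41.5% in set 2, with HCT116 below both at 28.2%, and its B share 30.1, 31.1 and 41.2%. The axis of HCT116 followed that of RPE1 more closely here than in any other cluster, with r = 0.884 and 0.859 over 34 windows, against 0.969 between the RPE1 sets. The 24 central windows averaged 0.652, 0.627 and 0.242, and the flanks -1.24, -1.22 and -0.932. The window nearest the C end, chr19:37500001-37550000, had C shares of 59.5, 58.2 and 45.6%, C leading in every set. Library C exceeded A over 750 kb and 1350 kb without a break in RPE1 and 950 kb in HCT116. The stretch of RPE1 set 1 broke at chr19:37750001-37800000, where A held 36.8% and C 36.7%, so its length rests on that window. With breaks allowed, C exceeded A in 21 and 27 of the 34 windows in RPE1 and in 19 in HCT116. The axis of HCT116 lay below both RPE1 sets in 30 of the 34 windows. At the last window, chr19:38350001-38400000, A held 55.9, 57.8 and 45.6%.

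Cluster 4, the shortest at 0.75 Mb, was the least C-rich in RPE1 and was B-led there. Its A, B and C shares were 40.9, 47.7 and 11.4% in RPE1 set 1, 38.4, 40.3 and 21.3% in RPE1 set 2 and 49.1, 32.1 and 18.8% in HCT116. Library B led 11 and 10 of its 15 windows in RPE1, and A led 12 in HCT116. No window was led by C in any set. The C share minus that of the rest of the chromosome was -2.02 and -3.27 points in RPE1 and -3.82 in HCT116. By medians over windows the RPE1 difference turned to 3.36. The A share minus that of the rest was -12.9 and -12.0 points in RPE1 and 1.05 in HCT116, and -4.03 in HCT116 by medians.

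The profile of cluster 4 was one-sided in RPE1. From the windows below its middle to those above, its axis rose by more in RPE1 set 1, from -0.989 to -0.262, and in set 2, from -0.894 to -0.211, than in HCT116, from -0.935 to -0.727. At the upper edge it dropped within the 5 windows on each side, from -0.208 inside to -1.22 outside in set 1 and from -0.201 to -1.34 in set 2. In HCT116 the step was from -0.658 to -0.826. The window nearest the C end, chr19:44900001-44950000, had B shares of 39.5 and 40.4% in RPE1 and A at 46.7% in HCT116. That nearest the A end, chr19:44250001-44300000, had A at 65.2, 64.0 and 59.7%.

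Cluster 5 was a plateau, C-led in nearly all windows in RPE1 and B-led in HCT116. Library C held 51.2 and 49.8% in the RPE1 sets, against 30.5% in HCT116. Library B held 23.2, 29.2 and 45.9%, and library A 25.6, 21.1 and 23.6%. The A share in HCT116 thus lay between the RPE1 sets, and the gap between the lines was in B and C. Library C led 34 and 31 of the 34 windows in RPE1, and B led 33 in HCT116. The axis varied little among the windows, with an SD over windows of 0.144, 0.205 and 0.284, the smallest of the clusters in both RPE1 sets. HCT116 lay below both RPE1 sets in all 34 windows, with a mean difference of -0.524. With normal ranks in place of SD units the mean difference was -0.153, and for cluster 3 and all clusters it went from -0.374 to -0.103 and from -0.284 to -0.116.

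The flanks of cluster 5 were not at the A end. They averaged -0.268 and -0.276 in RPE1, against values between -1.30 and -1.22 around clusters 1, 3, 4 and 6 in both sets. In HCT116 they averaged -0.766. The window nearest the C end, chr19:53800001-53850000, gave C 58.7, 56.4 and 34.8%. The window nearest the A end was the first, chr19:52300001-52350000, where C held 36.2 and 28.5% in RPE1 and B held 56.8% in HCT116. This cluster was higher at its upper edge in RPE1, where the 5 inner windows averaged 0.930 and 0.940, than at its lower edge, where they averaged 0.590 and 0.393.

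Cluster 6, the one whose gene run is least purely zinc finger, had peaks and dips. Its shares of A, B and C were 35.2, 34.9 and 29.9% in RPE1 set 1, 31.1, 35.7 and 33.1% in set 2 and 32.7, 43.0 and 24.3% in HCT116. In RPE1 the smoothed axis peaked around chr19:57000001-57050000 at 1.09 and 1.11 and around chr19:58350001-58400000 at 0.495 and 0.391. Between them it dipped to -0.776 and -0.697 at chr19:57800001-57850000. HCT116 stood at 0.174, -0.301 and -0.300 in those places. They were chosen on the RPE1 sets, so these values do not show whether HCT116 had a second peak elsewhere. Before smoothing, HCT116 reached 0.0851 at chr19:58200001-58250000 and 0.0167 at chr19:57700001-57750000. All 3 sets met at chr19:57300001-57350000, the window of the cluster nearest the C end, where C held 70.2, 55.6 and 53.0%. The first window, chr19:56100001-56150000, was nearest the A end, with A at 65.7, 65.2 and 60.7%. Library C exceeded A over at most 850 kb and 900 kb in RPE1 and 600 kb in HCT116.

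Counting the library with the largest share in each window showed where each letter dominated. Of the 248 windows, A, B and C led 31, 53 and 164 in RPE1 set 1 and 28, 52 and 168 in set 2. In HCT116 they led 46, 123 and 79. The clusters held 57.5 and 59.2% of the C-led windows of chromosome 19 in RPE1 and 49.1% in HCT116. They held 28.0 and 27.4% of its B-led windows in RPE1, near their 22.2% share of windows, and 61.5% in HCT116. Of its A-led windows they held 4.83, 4.36 and 6.09%.

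The leading library was the same in both RPE1 sets in 234 of the 248 windows and in all 3 sets in 127, or 51.2%, against 80.5% of the rest of the chromosome and 64.7% of autosomal windows. Of 161 cluster windows led by C in both RPE1 sets, 79 were led by C in HCT116, 81 by B and 1 by A. Cluster 2 kept C in 66 of its 83 such windows, cluster 3 in 7 of 20, cluster 6 in 5 of 19, cluster 5 in 1 of 31 and cluster 1 in 0 of 8. In the rest of the chromosome 82 of 112 such windows were led by C in HCT116 too, and over the autosomes 13843 of 18604. Of 47 cluster windows led by B in both RPE1 sets, 27 were led by B in HCT116 and 20 by A. Over the autosomes 8187 of 14288 such windows were led by B in HCT116, a share close to that of the clusters, and in the rest of the chromosome 28 of 115. As the letter B is the least well matched between the lines, these counts name columns, not fractions.

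**Figure D3:**
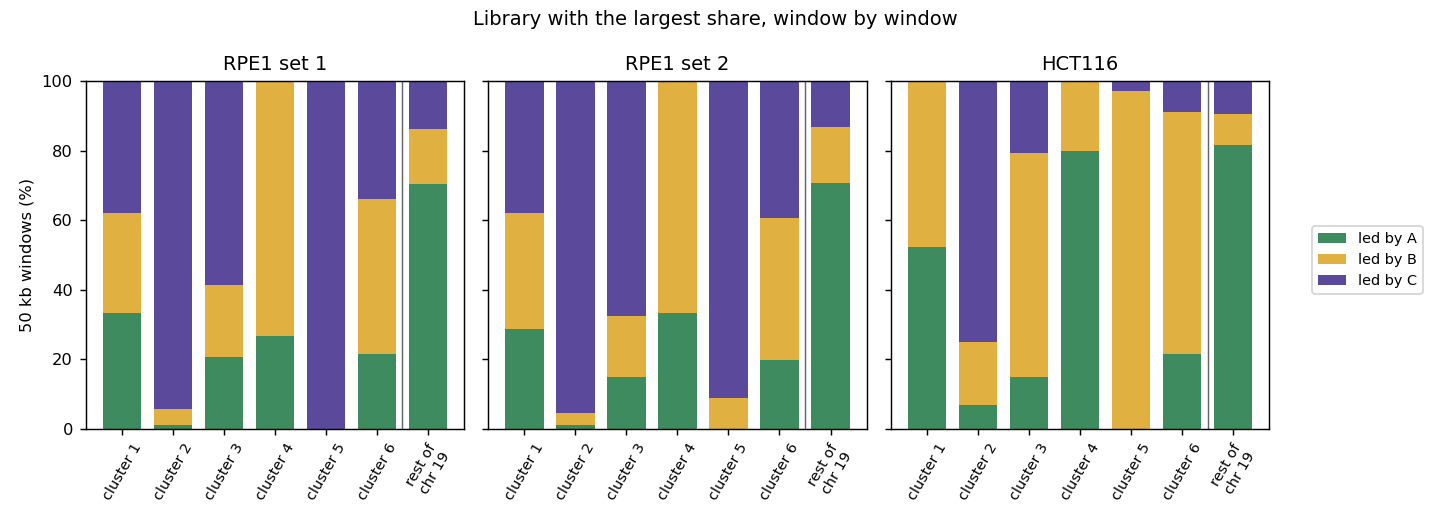
Percent of 50 kb windows (y axis) in which library A, B or C had the largest share, for each cluster and the rest of chromosome 19 (x axis), one panel per set. In RPE1 C led 83 and 84 of the 88 windows of cluster 2 and nearly all of cluster 5, while in HCT116 B led 33 of 34 windows of cluster 5 and cluster 1 had no C-led window.

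Where HCT116 departed from RPE1 by a set margin, the clusters as a whole were close to the genome. A window was counted when HCT116 lay at least 1 SD below both RPE1 sets on the axis, and 7.24% of autosomal windows met this. Among cluster windows 19 of 248 did, 7.66%, and in the rest of the chromosome 51 of 868, 5.88%. At least 1 SD above both lay 3.44% of autosomal windows, none of the cluster windows and none of the rest of the chromosome. The 19 windows were unevenly spread. Cluster 1 held 8 of its 21 windows (38.1%), cluster 2 held 5 of 88, cluster 6 held 5 of 56, cluster 5 held 1 of 34, and clusters 3 and 4 held none. The share for all clusters was therefore near the background, and that of cluster 1 above it. The counts depend on the margin and scale. With normal ranks in place of SD units, cluster 1 gave 14.3% and cluster 4 gave 20% against 5.87% of autosomal windows, and at 1.5 SD cluster 1 gave 0% against 1.98%. The RPE1 sets differed from each other by 0.110 on average over the cluster windows and by at most 0.413, and in no window by 1 SD.

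The windows past the margin formed 4 runs and 1 single window. In cluster 1 they were chr19:11950001-12100000 and chr19:12150001-12400000. The longer of these had C shares of 41.5 and 43.6% in RPE1 and 16.4% in HCT116, with 3659 HCT116 reads behind the latter, and its axis was 0.530, 0.462 and -0.740. In cluster 2 the run was chr19:19950001-20200000 beside the lower edge, with axis values of 0.693, 0.698 and -0.736. In cluster 6 it was chr19:56750001-57000000, at 0.763, 0.736 and -0.562, on the lower flank of the highest peak. The single window, chr19:53950001-54000000, was the last of cluster 5, at 0.904, 0.912 and -0.226. In 15 of the 19 windows C led both RPE1 sets and B led HCT116. The runs of clusters 2 and 6 lay where the C-rich stretch of HCT116 began further in than that of RPE1.

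By direction alone, and with no margin, HCT116 lay below both RPE1 sets in 158 of 248 cluster windows and above both in 76. In the rest of the chromosome it lay below both in 204 of 868 and above both in 587. Over the autosomes 37.1% lay below both and 53.5% above both, against 63.7 and 30.6% of the cluster windows. The A end of the axis was less extreme in HCT116, as the flanks show. Around cluster 1 the flanks averaged -1.28, -1.30 and -0.892, and around cluster 4 -1.30, -1.30 and -0.892. A window at the A end in both lines therefore counts as higher in HCT116. In C-led stretches HCT116 averaged higher, as in the upper part of cluster 2. Its highest window in the rest of the chromosome was not above that of RPE1 set 2, which was a different and unusually deep window. The part of these differences of scale in the counts was not tested.

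**Figure D4:**
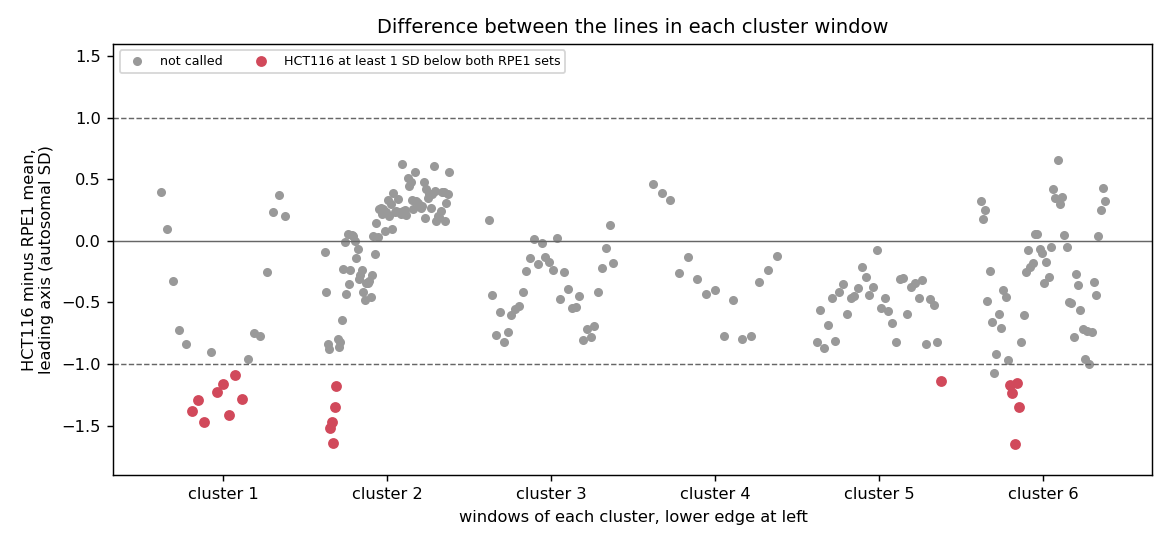
HCT116 minus the mean of the RPE1 sets on the leading axis (y axis, autosomal SD) for every window of the 6 clusters (x axis, in order within each cluster from its lower edge). Red points are the 19 windows at least 1 SD below both RPE1 sets. Cluster 1 holds 8 of them, and the windows above the middle of cluster 2 lie above 0 throughout. Summed over those windows, the HCT116 shares lie between those of the RPE1 sets, which does not hold in every single window.

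Every cluster could be read in every set, but read depth was not even within the clusters. The summed reads of a cluster window ran from 340 to 1897 with a median of 816.5 in RPE1 set 1, from 319 to 3884 with a median of 1055 in set 2 and from 223 to 3314 with a median of 578.5 in HCT116. HCT116 was the shallowest set. In cluster 2 it held only 311 to 338 reads per window over chr19:20700001-21000000, where RPE1 sets 1 and 2 held 839 to 941 and 889 to 973. The cause of this drop was not tested. The 1 kb bins with a read made up 98.9% or more in every cluster and set. Scaled reads per window in the clusters over those in the rest were 0.918 ± 0.0294 (SD, n = 2) in RPE1 and 1.03 in HCT116, so HCT116 lay above both RPE1 sets, 0.939 and 0.898.

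Cluster 3 stood apart in depth, at 1.07 and 1.06 times the rest in the RPE1 sets and 1.32 times in HCT116. Most of this excess lay in 2 windows, far above the median cluster window of 816.5, 1055 and 578.5 reads in RPE1 sets 1 and 2 and HCT116. The window chr19:36750001-36800000 held 1897, 3884 and 3314 reads in RPE1 sets 1 and 2 and HCT116, and chr19:37750001-37800000 held 1839, 3380 and 2459. Without 1 kb bins of over 10 times the median the ratios were 1.05 in RPE1 and 1.26 in HCT116. That step drops bins and not whole windows, so these ratios can still include reads of the 2 windows. The C shares of cluster 3 minus the rest were then 21.0 points in RPE1 and 6.36 in HCT116, beside 20.1 and 5.59 with all bins. Cluster 4 had the lowest depth, 0.776 ± 0.0737 (SD, n = 2) in RPE1 and 0.819 in HCT116. Copy number and repeat content of the clusters were not measured apart from this depth, and their part in the shares was not tested.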

How the data were processed

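Read counts per 1 kb bin were deposited as whole numbers, in 3 unnamed columns a set. The hg19 build, bedtools 2.25, SAMtools 1.2 and Bowtie2 are named in the submitters' processing notes, whose steps are not described. Mapping settings, the treatment of reads that map to several places and the method of duplicate removal are not given in the sources used here. Reads that map to near-identical zinc finger genes can therefore be lost or placed at random. The authors' counts were not scaled before deposit, as library totals differ.

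Bins were summed to 50 kb windows of the 22 autosomes and chromosome X, kept where 25 or more bins had a read, with 50 reads over the 6 RPE1 libraries and 30 reads in each set. Libraries were scaled to equal totals over kept windows, and shares of a part are ratios of summed scaled reads. The leading axis used log2 of scaled reads plus 1. Labels give the HCT116 mid and late libraries replicate number 2 and the early one none, and they were treated as 1 set. As no column names its sample, no comparison of named fractions and no p-value was made. Windows named are the highest and lowest of each cluster on the axis averaged over sets, and runs of at least 3 adjacent windows past 1 SD. One single window was added to complete the count. The clusters, measures and lists were chosen with earlier results of these data known. Edges compared 5 windows on each side, and smoothing covered 3 windows. Window size, filter, scaling, span edges, extreme bins, medians, pseudocount, threshold, axis and leaving out an RPE1 set were varied. The steps were tested on simulated data. Python 3.11.15, numpy 2.4.6, pandas 2.3.3 and scipy 1.17.1 were used.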

Additional observations from a re-analysis of the deposited data

Results flagged for a closer look

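In 2 clusters HCT116 stood on the other side of the rest of chromosome 19 from both RPE1 sets. The difference between the lines was not tested, since HCT116 has 1 set. In cluster 1 the C share minus that of the rest was 10.13 and 6.484 percentage points in RPE1 sets 1 and 2 and -5.51 in HCT116. The log2 ratio of C to A there, minus that of the rest, was 1.232 and 0.9113 in RPE1 and -0.2426 in HCT116. By medians over windows the latter was 0.21, so that sign does not hold, while the C share was -1.75.

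In cluster 4 the A share minus that of the rest was -12.91 and -12.03 percentage points in RPE1 and 1.052 in HCT116. Its log2 ratio of C to A minus that of the rest was 0.1618 and 0.1867 in RPE1 and -0.2985 in HCT116. These signs do not hold either under every setting. The A share in HCT116 was -4.03 by medians, and the log2 ratio in RPE1 was -0.23 with lengthened spans.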

How the results depend on the processing

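Under 19 settings 885 values were recomputed. Of these, 701 moved by no more than the spread between the RPE1 sets (counts by up to 1.5 times). Another 180 moved by more, and 4 changed sign from a main value larger than that spread. Sign changes of smaller main values are counted among the 701 or the 180. Leaving out 1 RPE1 set cannot move an RPE1 mean, or a difference from it, past that spread. Those values among the 701 were thus fixed in advance. The settings of the 500 kb flanks as the reference and of thinning libraries to the smallest were chosen after seeing the data. In the A share of all clusters minus the rest, the RPE1 sets differ by so little that most settings pass that spread. Set against -23.9 in RPE1 and -18.2 in HCT116, the A share of all clusters minus the rest was -23.4 and -17.8 points with 100 kb windows and -23.3 and -17.7 without the filter. It was -21.1 and -15.9 when scaled on chromosome 19, -25.8 and -19.8 with spans shortened by 100 kb at each end, and -21.2 and -16.9 with spans lengthened. Without extreme bins it was -24.2 and -18.6, with medians over windows -34.7 and -27.4, and against 500 kb flanks -27.1 and -17.2. Medians also raised the C share in RPE1 to 35.9 points and the log2 ratio of C to A to 3.68. The percent of cluster windows led by A, 11.9 in RPE1 and 18.5 in HCT116, was 4.44 and 11.3 when scaled on chromosome 19, and in RPE1 6.25 with shortened and 18.0 with lengthened spans.

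The percent of cluster windows with HCT116 below both RPE1 sets was 4.03 with normal ranks, 4.84 with the log2 ratio of C to A as the axis, 29.0 at 0.5 SD, where 1.61 lay above, and 0.806 at 1.5 SD. The autosomal share was 5.87, 5.45, 17.7 and 1.98 under these 4 settings. For cluster 1 it was 14.3, 23.8, 66.7 and 0.

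The sign turned in cluster 4 for the log2 ratio of C to A in RPE1 with lengthened spans (-0.23) and the C share in RPE1 with medians (3.36), in cluster 4 for the A share in HCT116 with medians (-4.03) and in cluster 1 for the log2 ratio in HCT116 with medians (0.21). Main values below the spread turned too. The B share of all clusters minus the rest in RPE1 was 1.14, with a lowest value of -4.29 over the settings. Beyond the construction of medians and spans, the cause of the 4 turns was not tested. No paired analysis was possible because columns could not be tied to fractions and no test was run, and the planned edgeR fit with named fractions was not run. HCT116 has the lowest depth and no replicate.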
